A study of Mus musculus with 5 samples.

Results

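Public clonotypes, T cell receptor chains found in more than one mouse, were examined in CD4 single-positive thymocytes. A clonotype was a combination of V gene, J gene and amino acid CDR3 with neither a frameshift nor a stop, and it was counted as public when at least 2 of the 3 wild type (WT) libraries held it. This gave 1086 public alpha chain (TRA) clonotypes among 17974 distinct WT clonotypes and 25399 over all 5 libraries, and 727 public beta chain (TRB) clonotypes among 26914 and 38822. The presence of a clonotype in the WT libraries is the value that chose the members, so the set was selected on these data, and its number and levels in WT are given as a description.

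The cells came from thymi of C57BL/6J mice 21 to 30 days old. The 3 WT mice carried no targeted allele, and the 2 *Tet2/3* DKO mice (Tet2-/-Tet3flx/flxCD4cre) lacked *Tet2* in every cell and deleted *Tet3* with a Cre driven by the *Cd4* promoter, which is active from the double-positive thymocyte on. Live CD24low cells that were CD4+, TCRb+, CD8- and negative for the CD1d tetramer loaded with alpha-galactosylceramide were sorted, and 1 SMART-seq library was made from each mouse. The libraries are called WT 1 to WT 3 and DKO 1 and DKO 2 after their group and replicate. No molecular identifiers were used, so a read is not a molecule, and all intervals given here cover counting error only.

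T cell receptor genes are assembled in the thymus by joining a V to a J segment, with a D segment between them in the beta chain. The enzymes trim the segment ends, and terminal deoxynucleotidyl transferase (TdT, encoded by *Dntt*) adds bases that no segment encodes. The junction is the CDR3, the loop that mostly contacts the peptide. Because several codons specify most amino acids, different junctions can give the same CDR3 protein, which is called convergent recombination, and junctions with few added bases can arise repeatedly in separate animals.

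The largest number of nucleotide forms stood behind a TRB clonotype of *Trbv13-2* (chr6:41121396-41121832) and *Trbj2-3* (chr6:41543223-41543271; all coordinates are mm10, plus strand). Its CDR3 of 14 residues was written in 9 nucleotide forms over 4 libraries. The 8 forms printed here differ at 6 of the 42 bases, which are in capitals, and all of them encode the same CDR3 protein.
Trbv13-2/Trbj2-3, form 1: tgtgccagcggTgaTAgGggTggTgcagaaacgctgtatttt
Trbv13-2/Trbj2-3, form 2: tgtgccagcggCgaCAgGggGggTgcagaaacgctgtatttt
Trbv13-2/Trbj2-3, form 3: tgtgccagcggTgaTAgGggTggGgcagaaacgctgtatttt
Trbv13-2/Trbj2-3, form 4: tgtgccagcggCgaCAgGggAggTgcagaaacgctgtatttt
Trbv13-2/Trbj2-3, form 5: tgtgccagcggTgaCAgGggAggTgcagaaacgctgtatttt
Trbv13-2/Trbj2-3, form 6: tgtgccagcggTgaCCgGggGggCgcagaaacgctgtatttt
Trbv13-2/Trbj2-3, form 7: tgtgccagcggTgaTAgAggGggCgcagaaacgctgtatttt
Trbv13-2/Trbj2-3, form 8: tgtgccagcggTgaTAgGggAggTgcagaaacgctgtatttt

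The commonest of these forms had 3 reads and each of the other forms had 1 or 2, and the clonotype had 2, 3 and 4 reads in WT 1, WT 2 and WT 3, 4 in DKO 1 and 0 in DKO 2. No form occurred in more than 1 library. The forms printed held between 2 and 4 bases that the V, D and J alignments left uncovered.

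Of the members found in all 5 libraries, the TRB clonotype of *Trbv3* (chr6:41048290-41048828) and *Trbj2-7* (chr6:41543810-41543856), 12 residues long, is shown because its 4 forms differ at a single base, in capitals. They hold every one of the 4 bases there.
Trbv3/Trbj2-7, form 1: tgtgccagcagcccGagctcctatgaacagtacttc
Trbv3/Trbj2-7, form 2: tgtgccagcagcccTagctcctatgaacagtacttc
Trbv3/Trbj2-7, form 3: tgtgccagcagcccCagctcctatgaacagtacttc
Trbv3/Trbj2-7, form 4: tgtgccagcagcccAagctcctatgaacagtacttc

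Its reads numbered 8, 7 and 3 in WT 1, WT 2 and WT 3, and 5 and 3 in DKO 1 and DKO 2. Under any V name its forms had 14 reads in WT 1 and the same numbers in the others. Each library had between 1 and 3 of the 4 forms.

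For TRA, 8 members had 5 nucleotide forms, the highest number, and the one of them with most WT reads joined *Trav9-1* (chr14:53488045-53488567) to *Traj31* (chr14:54187895-54187951) in 13 residues. The form with most reads held no inserted base, and the bases in capitals in the others are those that neither the V nor the J alignment covered.
Trav9-1/Traj31, form 1: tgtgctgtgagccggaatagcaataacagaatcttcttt
Trav9-1/Traj31, form 2: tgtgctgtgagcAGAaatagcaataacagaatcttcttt
Trav9-1/Traj31, form 3: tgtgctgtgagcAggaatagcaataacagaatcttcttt
Trav9-1/Traj31, form 4: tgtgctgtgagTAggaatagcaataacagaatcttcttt
Trav9-1/Traj31, form 5: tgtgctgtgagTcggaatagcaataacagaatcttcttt

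This clonotype had 7, 6 and 3 reads in WT 1, WT 2 and WT 3, 0 in DKO 1 and 1 in DKO 2. The form without inserted bases was in all 3 WT libraries and in DKO 2, and under another V name it had 2 reads in DKO 1.

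Depth and identity of the libraries were checked first. The libraries held 8944 to 11215 TRA reads in WT and 9758 and 6401 in DKO 1 and DKO 2, and 10966 to 13723 TRB reads in WT and 11808 and 10519 in *Tet2/3* DKO. Between 69.4% and 80.8% of productive nucleotide clonotypes rested on a single read. Markers of CD4 T cells were present in every library, with *Cd4* at 575 to 759 CPM (counts scaled to 1000000 per library) in WT and 382 and 440 in *Tet2/3* DKO, while *Cd8a*, *Rag1*, *Rag2*, *Ptcra* and the B cell genes *Cd79a* and *Ms4a1* stayed at or below 8.80 CPM. *Cd8b1*, a second CD8 gene, was at 65.8 to 72.1 CPM in WT and at 28 and 27.5 in *Tet2/3* DKO. *Dntt*, like *Rag1*, *Rag2* and *Ptcra* a marker of immature thymocytes, was at 16.9 to 23.8 and at 13.3 and 14.4. Of the gamma delta T cell genes, *Trdc* was at 11.5 to 18 in all libraries. *Sox13* was at 0.954 to 1.07 in WT and at 0.234 and 0.227 in *Tet2/3* DKO. The myeloid gene *Lyz2* was at 5.87 to 10.6 CPM in WT and at 18.2 and 43.1 in *Tet2/3* DKO. Of the other myeloid genes, *Csf1r* was at 0.0367 to 0.266 and at 0.702 and 1.08, and *Itgam* at 0.257 to 0.638 in all libraries. *Zbtb16*, a factor of iNKT cells, was at 0.553 to 1.22 in WT and at 11.7 and 14.4 in *Tet2/3* DKO. *Tet3* was at 43.1 to 52.8 CPM in WT and at 19.6 and 13.3 in *Tet2/3* DKO. The library labelled DKO 1 went against its label of a male mouse, with 744 *Xist* counts and 7 counts on 4 Y-linked genes. The library labelled WT 1, given as female in its label, had 6821 Y-linked counts. The paper gives all mice used for RNA sequencing as male. Values are therefore given for each *Tet2/3* DKO library on its own.

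Few members were common to all WT mice. For TRA 964 members were in exactly 2 WT libraries and 122 in all 3, which together made 6.04% of the distinct WT clonotypes. For TRB the numbers were 670 and 57, or 2.7%. Most members were rare: 695 of the TRA and 580 of the TRB members had at most 2 reads in every library, and 346 and 323 of these had a single read wherever they were found. The WT library with the highest TRA member, *Trav14n-2* with *Traj13*, had 32 reads of it, and no TRB member exceeded 9 reads in a WT library.

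Public CDR3s held fewer inserted bases than private ones. Inserted bases were counted as the CDR3 bases outside the V, D and J alignments of the deposited tables. In TRB forms without an aligned D stretch, all bases between V and J were counted, which can include bases of a D segment. TRA members averaged 1.27 ± 1.26 inserted bases (SD over 1086 clonotypes), and clonotypes of a single WT library averaged 2.54 ± 2.18 (SD over 16888). Among the nucleotide forms of TRA members 35.7% had no inserted base, against 19.1% for single-library clonotypes, and 0.544% against 8.06% had 6 or more. TRB members averaged 2.04 ± 1.58 inserted bases against 3.29 ± 2.42, with no inserted base in 25.2% against 11.3% of forms. These values describe the set that the rule chose. Clonotypes just inside the rule, in 2 WT libraries, averaged 1.28 (TRA) and 2.05 (TRB) inserted bases, close to the 1.19 and 1.86 of those in all 3.

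**Figure D1:**
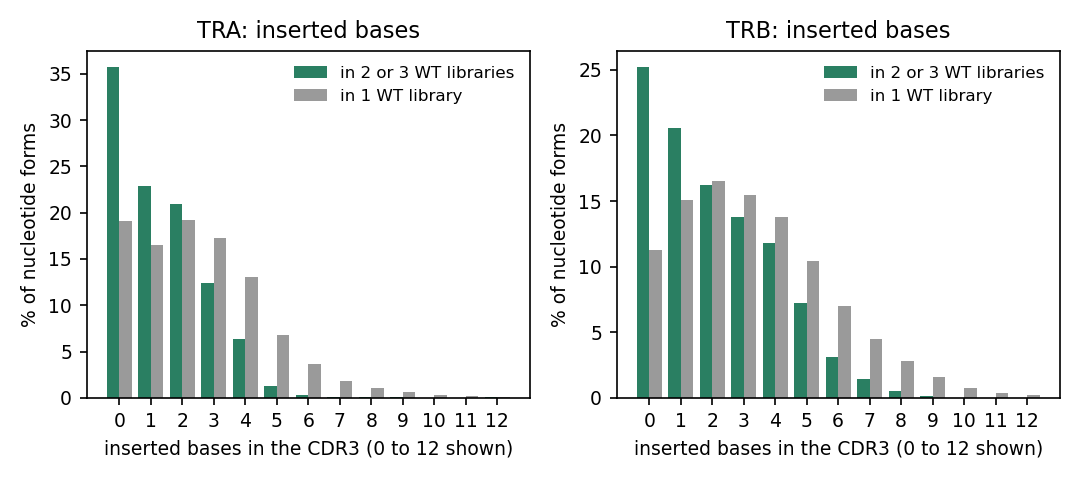
Share of nucleotide forms (y, percent) by the number of inserted bases in the CDR3 (x) for clonotypes in 2 or 3 WT libraries (green) and in 1 WT library (grey). In both chains the green bars are highest at 0, 35.7% for TRA and 25.2% for TRB, and the grey bars reach further to the right.

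The rule did not use the *Tet2/3* DKO libraries, although 4 of the 6 pairs of a WT and a *Tet2/3* DKO library have an index sequence in common and reads passed between them were not tested. The clonotypes that each *Tet2/3* DKO library held in common with a pair of WT libraries were compared with its other clonotypes, averaged over the 3 pairs. The TRA clonotypes so found averaged 0.835 and 0.836 inserted bases in DKO 1 and DKO 2, and all other TRA clonotypes of these libraries 2.32 and 2.24. For TRB the values were 1.87 and 1.68 against 3.21 and 3.03. The recurring clonotypes had fewer inserted bases in both *Tet2/3* DKO libraries and both chains, and with 2 libraries no test was made. *Dntt*, which encodes TdT, was at 16.9, 23.8 and 19.4 CPM in WT and at 13.3 and 14.4 in *Tet2/3* DKO, and its part in the numbers of inserted bases was not tested.

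Public CDR3s were also of more uniform and shorter length. TRA members measured 13.4 ± 0.978 residues and single-library clonotypes 13.6 ± 1.4, and TRB members 13.2 ± 1.26 against 13.8 ± 1.37 (SD over clonotypes). The commonest length was 13 residues among members of both chains, with 40.8% of TRA and 32.0% of TRB members. TRA members spanned 10 to 18 residues and TRB members 8 to 16, whereas single-library clonotypes reached 25 and 20. In DKO 1 and DKO 2 the recurring TRB clonotypes averaged 13.1 and 13 residues and the others 13.7 in both. For TRA the difference was smaller, with 13.3 and 13.4 residues against 13.5 in both.

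**Figure D2:**
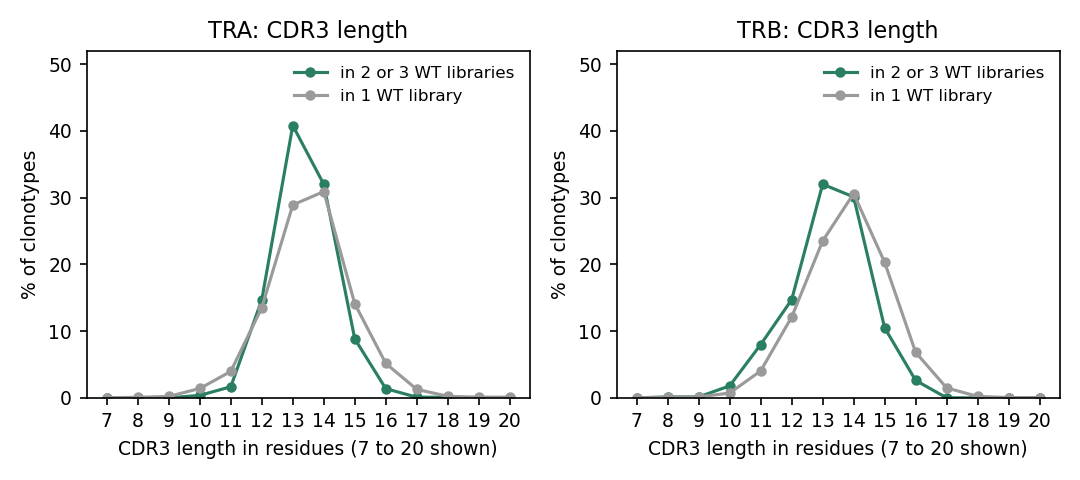
Share of clonotypes (y, percent) by CDR3 length in residues (x) for clonotypes in 2 or 3 WT libraries (green) and in 1 WT library (grey). Both green curves peak at 13 residues, with 40.8% of TRA and 32.0% of TRB members, and fall off faster than the grey curves at long lengths.

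In the beta chain fewer bases were aligned to a D segment in public than in private CDR3s. An aligned D stretch was reported for 56.4% of the members' nucleotide forms and 72.0% of the single-library forms, with means of 4.28 and 5.67 bases, counting forms without one as 0. Bases of a D segment that were not aligned are missed here, so the values do not measure the whole part of the D segment. *Trbd2* (chr6:41542163-41542176) and *Trbd1* (chr6:41533201-41533212) are the 2 D segments of the mouse, shown here in the germline sequence of GENCODE M21.
Trbd1: gggacagggggc
Trbd2: gggactgggggggc

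A stretch of at least 10 bases identical to *Trbd2* was in 12% of members' forms and 11.1% of single-library forms on the coding strand, a similar share. Members with such a stretch include some of the largest, as described below for *Trbv17* with *Trbj2-4*.

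With every form counted, most public clonotypes were written in more than 1 nucleotide form. In the WT libraries 657 TRA members (60.5%) and 582 TRB members (80.1%) had 2 or more forms, with means of 1.69 and 1.97, against 1.23% and 0.939% of single-library clonotypes. Counting clonotypes of several mice raises the number of forms by itself, so this contrast is partly set by the rule. Much of the number rests on single reads. With forms of at least 2 reads in a library alone, 684 TRA and 350 TRB members kept a form, 127 (18.6%) and 59 (16.9%) of these had 2 or more, and the means were 1.2 and 1.19. Within the members, 497 TRA (45.8%) and 529 TRB members (72.8%) had different nucleotide forms in every WT library that held them, and the other 589 and 198 shared at least 1 identical form between WT mice. When members reappeared in *Tet2/3* DKO cells, 78.3% and 77.6% of the TRA members and 51.0% and 45.5% of the TRB members found in DKO 1 and DKO 2 carried a form that a WT library held.

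Some libraries have an index sequence in common, and among WT pairs only WT 1 and WT 3 had none. They had 483 TRA clonotypes in common, of which 53.0% had an identical nucleotide form, and the other WT pairs had 424 and 423, with 53.3% and 50.8%. For TRB the pair without a common index shared 308 clonotypes, 26.0% with an identical form, and the others 276 and 257, with 26.4% and 25.3%. The share of identical forms in the pair without a common index lay between those of the other 2 pairs in both chains. Whether any identical form came from reads assigned to the wrong library was not tested.

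Gene use of the public set differed most for a few segments. V segments encode the bulk of the variable domain with the first 2 loops, and J segments close the CDR3. Several mouse *Trav* families exist in near-identical copies, and 87.6% of the members' TRA forms were deposited with more than 1 possible V gene. TRA V names are therefore uncertain within a family. Of the members' TRB forms only 1.26% were deposited so. Even so, 37.1% of the TRB nucleotide CDR3s found in 2 or more WT libraries carried different first V names there. The first name listed was used. All shares here are of distinct clonotypes, members against clonotypes of a single WT library, and were not tested.

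*Trav7-2* was the most used V gene of TRA members, at 11.4% against 5.05%, followed by *Trav7-4* (9.85% against 4.97%), *Trav6-6* (8.01% against 3.90%), *Trav14-1* (5.71% against 4.44%) and *Trav9-1* (4.42% against 2.57%). *Trav4-4-dv10* was also used more, at 4.33% against 3.04%. The largest losses of share were those of *Trav6-5*, at 0.460% against 1.73%, *Trav7-5* (1.47% against 2.48%) and *Trav7-3* (1.47% against 2.27%). Since V names are uncertain within a family, the opposite directions of *Trav7* names cannot be told from a difference in naming, and 61.2% of the nucleotide CDR3s found in 2 or more WT libraries carried different first V names there. Members used 72 of the 104 V genes seen in WT. The most used J genes were, in order, *Traj31* (10.6% against 5.72%), *Traj37* (6.35% against 4.39%), *Traj23* (5.99% against 5.00%), *Traj22* (5.52% against 3.75%) and *Traj27* (5.25% against 4.27%). *Traj15* (4.88% against 3.57%) and *Traj12* (4.33% against 3.15%) were also used more. *Traj6* (0.645% against 1.95%), *Traj21* (2.39% against 3.4%) and *Traj32* (1.10% against 1.97%) were less used.

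Among TRB members *Trbv13-2* and *Trbv3* were the leading V genes, with 14.2% against 9.95% and 13.5% against 9.23%. *Trbv31* (11.6% against 9.13%), *Trbv5* (8.94% against 7.06%) and *Trbv16* (7.70% against 6.34%) followed, and *Trbv19* (3.03% against 5.20%), *Trbv2* (3.44% against 5.29%) and *Trbv13-1* (5.91% against 7.72%) were used less. *Trbj2-7* closed 23.8% of the members against 17.6% of single-library clonotypes, *Trbj2-5* 16.8% against 13.8%, *Trbj1-3* 7.02% against 5.19%, *Trbj2-4* 12.2% against 11.1% and *Trbj2-3* 10.3% against 9.36%, and *Trbj1-1* was at 10.2% against 9.93%. *Trbj2-1* (7.70% against 11.1%), *Trbj1-4* (3.03% against 6.07%) and *Trbj2-2* (3.16% against 5.91%) were less frequent. The *Trbj2* cluster as a whole made 74.0% of members and 68.9% of single-library clonotypes.

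**Figure D3:**
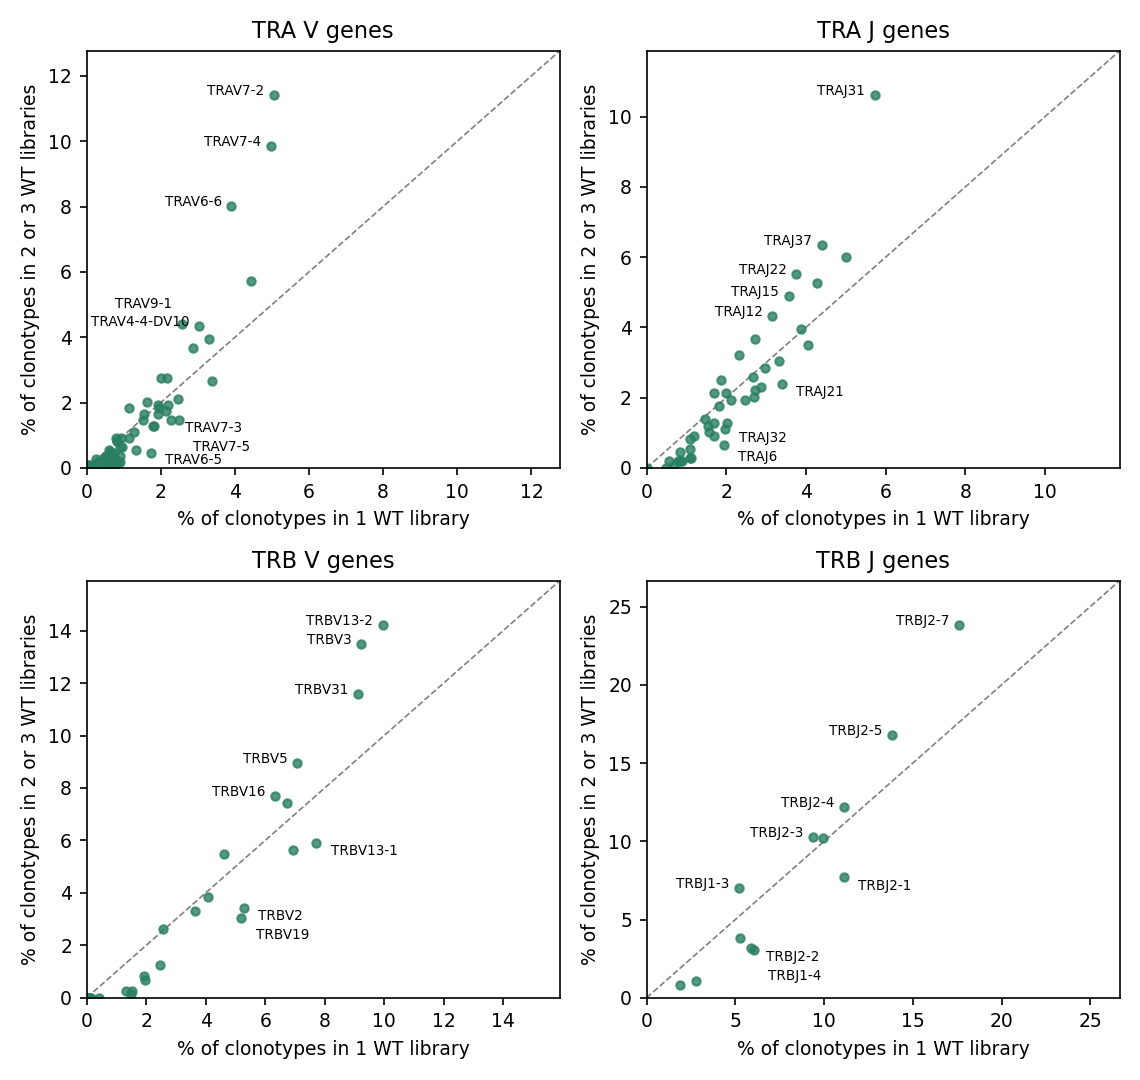
Use of V and J genes by clonotypes in 2 or 3 WT libraries (y, percent of clonotypes) against clonotypes in 1 WT library (x, percent), 1 point per gene, with the dashed line at equal use. The genes with the 5 largest gains and 3 largest losses are named; *Trav7-2* (11.4% against 5.05%) and *Trbj2-7* (23.8% against 17.6%) lie well above the line.

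The comparison asked whether the public repertoire of WT mice recurs in cells without TET2 and TET3. Of the 1086 TRA members, DKO 1 held 226, or 20.8%, and DKO 2 held 156, or 14.4%. Their 95% Wilson intervals were 18.5 to 23.3 and 12.4 to 16.6. Of the 727 TRB members, DKO 1 held 102, or 14.0% (interval 11.7 to 16.7), and DKO 2 held 66, or 9.08% (interval 7.2 to 11.4). Clonotypes of a single WT library recurred far less, at 3.87% (3.59 to 4.17) and 2.56% (2.34 to 2.81) for TRA and 1.87% (1.71 to 2.04) and 1.24% (1.11 to 1.38) for TRB in DKO 1 and DKO 2. The members' share was the higher one in both libraries and both chains. The intervals treat the clonotypes of a library as independent, clonotypes are not replicates, and no test was made. Members were also chosen for being seen repeatedly. TRA clonotypes in common with a pair of WT libraries averaged 2.54 and 2.2 reads in DKO 1 and DKO 2, and the others 1.55 and 1.62. Both *Tet2/3* DKO libraries held 56 TRA and 20 TRB members, and 326 and 148 were in at least 1 of them. All 5 libraries held 20 TRA and 5 TRB members.

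Recurrence was higher for clonotypes shared by more WT mice. TRA members of all 3 WT libraries were found in DKO 1 and DKO 2 at 39.3% and 31.1%, and those of 2 WT libraries at 18.5% and 12.2%. For TRB the shares were 26.3% and 28.1% against 13% and 7.46%. Members with 3 or more nucleotide forms in WT were found at 44.2% and 29.9% (TRA) and 31.4% and 16.7% (TRB), but they were only 77 TRA and 102 TRB members. The 580 and 480 members with 2 forms were found at 19.1% and 15.0% (TRA) and 11.2% and 8.12% (TRB), close to the 18.9% and 10.7% and the 11% and 6.90% of members with 1 form. In DKO 2 the Wilson intervals of TRB members with 3 or more forms and with 1 form overlapped. By inserted bases, TRA members with none were found at 22.3% and 15.2%, those with a mean above 0 and up to 3 at 21.5% and 14.7%, and the 77 with a mean above 3 at 9.09% and 7.79%. For TRB the shares were 17.5% and 10.7%, 14.1% and 9.11%, and 11.7% and 7.98%. The intervals of the classes without insertions and above 3 overlapped, except for TRA in DKO 1. The classes overlap one another and differ in read number, so they are described without a test.

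Members made up 11.5% to 12.8% of the distinct TRA clonotypes of the WT libraries and 4.09% and 4.48% of those of the *Tet2/3* DKO libraries, and 5.03% to 5.72% against 1.32% and 1.26% for TRB. This contrast is set by the choice of members from WT libraries. The comparison with sets that the tested library had not helped to choose is given next.

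Of the distinct TRA clonotypes, 1.82%, 2.15% and 1.79% in WT 1, WT 2 and WT 3 were in the set shared by the other 2 WT libraries, and 1.94% and 2.22% in DKO 1 and DKO 2 were in the sets shared by WT pairs. The groups overlapped. The means were 1.92% ± 0.198 (SD, n = 3) and 2.08% ± 0.195 (SD, n = 2), a WT minus *Tet2/3* DKO difference of -0.159 percentage points (exact permutation test, two-sided, p = 0.5). For TRB the WT values were 0.618%, 0.680% and 0.565% and the *Tet2/3* DKO values 0.569% and 0.621%, again overlapping. Their means were 0.621% ± 0.0577 (SD, n = 3) and 0.595% ± 0.0371 (SD, n = 2), a difference of 0.0257 points (exact permutation test, two-sided, p = 0.7). With 3 against 2 libraries the smallest p of this test is 0.1, so no difference could pass 0.05, and the WT values are not independent of one another. The clonotypes found are the same 122 TRA and 57 TRB members of all 3 WT libraries each time, so the WT values differ only through the number of distinct clonotypes in each library. Without regard to the V name, the TRA means were 11.1% in WT and 12.6% in *Tet2/3* DKO, a difference of -1.55 points (exact permutation test, two-sided, p = 0.3), and the TRB means 2.33% and 2.49%, a difference of -0.164 points (p = 0.4 in the same exact test).

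**Figure D4:**
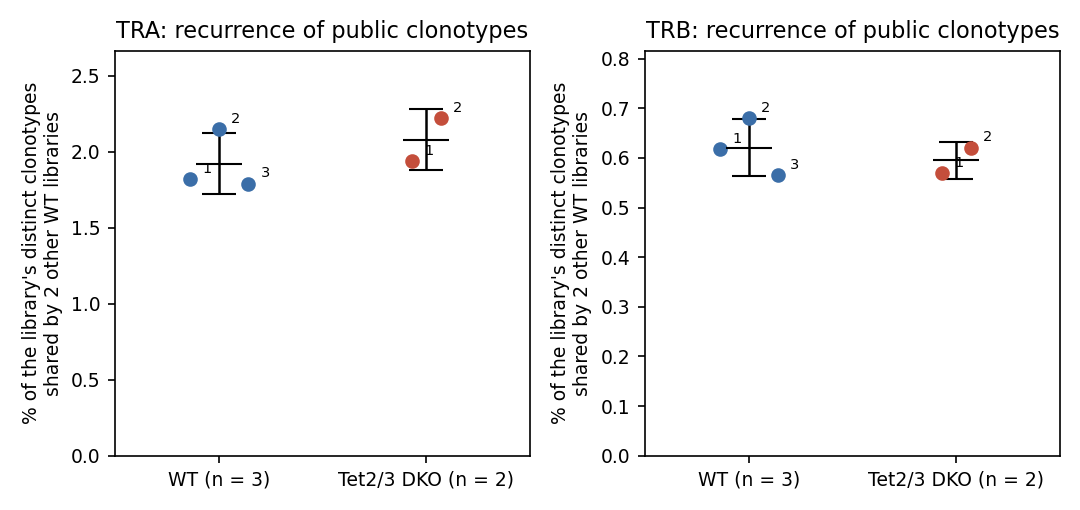
Percent of the distinct clonotypes of each library (y) that were in sets shared by 2 other WT libraries, for WT (blue, n = 3) and *Tet2/3* DKO (red, n = 2), with the replicate number beside each point and the mean ± SD in black. The 2 groups overlap in both chains, with TRA means of 1.92% and 2.08% and TRB means of 0.621% and 0.595%.

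The outcome depended on what was counted. With every library thinned to the same number of reads (5681 for TRA and 10224 for TRB), an expected 24.7%, 24.6% and 24.0% of the TRA sets were found in WT 1, WT 2 and WT 3 and 22.5% and 20.5% in DKO 1 and DKO 2. For TRB the values were 21.6%, 19.4% and 18.8% against 15.3% and 11.8%. All WT libraries were above both *Tet2/3* DKO libraries in both chains, and p was 0.1 in both, the smallest possible (exact permutation test, two-sided). The *Tet2/3* DKO libraries held fewer distinct clonotypes at that number of reads, an expected 4059 and 3486 TRA clonotypes against 4409 to 4455 in WT and 7084 and 5257 TRB clonotypes against 8150 to 8285. By the percent of productive reads in these sets, both *Tet2/3* DKO libraries were instead above all WT libraries for TRB. The values were 1.25% and 1.85% in DKO 1 and DKO 2 against 1.02%, 0.915% and 0.882% in WT 1, WT 2 and WT 3. There p was also 0.1 (exact permutation test, two-sided). Per distinct clonotype the order was another one than at equal reads. Pairs of WT libraries shared 10.6 to 11.1 TRA clonotypes per 1000000 possible pairs, WT with *Tet2/3* DKO 10.7 to 11.9 and the *Tet2/3* DKO pair 12.6. For TRB the values were 3.04 to 3.57, 3.12 to 3.35 and 3.81. The *Tet2/3* DKO pair was the highest of the 10 pairs in both chains, and the part of the number of clonotypes in the values at equal reads was not tested. The *Tet2/3* DKO pair had 242 TRA clonotypes in common, of which 122 were in at least 1 WT library, and 155 TRB clonotypes, of which 54 were.

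Gene use among the recurring members lay outside the WT range in both *Tet2/3* DKO libraries for some genes and not for others. Over all genes used by members, the shares of the 2 groups did not overlap, in either direction, for 33.3% of V and 46.5% of J genes of TRA and for 50.0% and 58.3% of TRB, so the genes given here are examples and not a result about them. *Trav7-2* was used by 21.7% and 24.4% of the members found in DKO 1 and DKO 2, against 11% to 12.5% of the members in each WT library, and by 6.75% and 6.54% of all their TRA clonotypes against 5.62% to 6.25%. *Traj15* was used by 11.1% and 10.3% of the members found there and by 4.72% to 5.10% in WT, and by 4.79% and 5.02% of all TRA clonotypes against 3.70% to 3.79%. *Trbv20*, named after its values were seen, was used by 15.7% and 12.1% of the TRB members found there against 5.04% to 6.45% in WT, and by 6.91% and 5.86% of all TRB clonotypes against 4.48% to 5.00%. The *Tet2/3* DKO libraries lay above all WT libraries in each of these shares. *Trav14-1* was below, at 2.21% and 1.92% of the members found there against 4.83% to 6.11% in WT, while its share of all TRA clonotypes was 4.29% and 4.27% against 4.30% to 4.77%. Others did not repeat: *Trbv5* was at 11.8% and 3.03% against 6.93% to 10.2%, and *Trav7-4* at 13.3% and 8.33% against 9.66% to 10.8%. The WT shares include the members that did not recur, and no test was made.

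A few public clonotypes were large in *Tet2/3* DKO cells. Among the 10 largest nucleotide clonotypes of each chain, 2 TRA and 2 TRB clonotypes of DKO 1 and 1 of each chain of DKO 2 belonged to members. The 2 TRB clonotypes of DKO 1 were forms of 1 member. Of all distinct clonotypes, members made up 4.09% and 4.48% (TRA) and 1.32% and 1.26% (TRB) in DKO 1 and DKO 2. Under any V name, at least 2 WT libraries also held the CDR3 of *Trav14-2* with *Traj13* in DKO 1. The same held in DKO 2 for *Trav14-2* with *Traj22*, *Trav14n-3* with *Traj7* and *Trav10d* with *Traj53*. The largest member joined *Trbv17* (chr6:41163062-41163556) to *Trbj2-4* (chr6:41543362-41543410) in 13 residues, with no inserted base, and its capitals mark the bases aligned to the D segment, a stretch of 10 bases that is also in *Trbd2*.
Trbv17/Trbj2-4: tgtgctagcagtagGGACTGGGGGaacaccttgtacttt

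It had 0, 4 and 2 reads in WT 1, WT 2 and WT 3, 0 in DKO 1 and 410 in DKO 2. The libraries with 4 and 2 reads each have an index sequence in common with the library with 410, and the libraries with 0 have none in common with it. Whether these WT reads came from the *Tet2/3* DKO library was not tested, and without them this clonotype is not a member. It supplied 410 of the 509 reads of TRB members in that library, 4.98% of its productive reads, and without it the members had 1.01%. In DKO 1 members had 2.07% of the TRB reads, and 1.52% without the largest.

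That largest member of DKO 1 joined *Trbv20* (chr6:41188273-41188977) to *Trbj2-7* in 14 residues and was in all 5 libraries. Its forms are shown with the bases that differ in capitals.
Trbv20/Trbj2-7, form 1: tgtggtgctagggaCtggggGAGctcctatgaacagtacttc
Trbv20/Trbj2-7, form 2: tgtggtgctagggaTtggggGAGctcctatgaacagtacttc
Trbv20/Trbj2-7, form 3: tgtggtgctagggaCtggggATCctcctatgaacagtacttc
Trbv20/Trbj2-7, form 4: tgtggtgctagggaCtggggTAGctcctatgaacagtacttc

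WT 1, WT 2 and WT 3 had 7, 5 and 2 reads of it, and DKO 1 and DKO 2 had 64 and 4. The first form had no inserted base and was in every library. The second was in DKO 1 only, where the 2 forms had 32 and 31 reads and both ranked among the 10 largest. That library stood above the others through these 2 forms. WT 1 and WT 3 have an index sequence in common with DKO 1, and WT 2 and DKO 2 have none. Whether any WT reads of the first form came from DKO 1 was not tested.

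The TRA members among the largest clonotypes had few or no inserted bases. *Trav3d-3* (chr14:52972448-52973038) with *Traj22* (chr14:54197248-54197307) had 5, 0 and 5 reads in WT 1, WT 2 and WT 3 and 0 and 88 in DKO 1 and DKO 2, or 2 in DKO 1 under any V name. WT 3 has an index sequence in common with DKO 2 and WT 1 has none. Whether the reads of WT 3 came from DKO 2 was not tested, and without them this clonotype is not a member. *Trav14n-2* with *Traj22* had 11, 0 and 18 reads in WT and 20 and 0 in *Tet2/3* DKO, and *Trav7-2* with *Traj15* had 11, 2 and 0 and 17 and 1, or 11, 8 and 3 and 17 and 2 under any V name. Each was in several libraries, and some of their zeros reflect the V name. WT 1 and WT 3 have an index sequence in common with DKO 1, and reads passed between them were not tested. The CDR3 of *Trav14n-2* with *Traj22* had 11, 8 and 18 reads in WT and 20 and 18 in *Tet2/3* DKO when every V name was counted, and that of *Trav14n-2* with *Traj13* had 15, 16 and 32 in WT and 21 and 8 in *Tet2/3* DKO, against 0, 16, 32, 0 and 0 under that name. Both of these CDR3s run from V into J without an inserted base.
Trav14n-2/Traj13: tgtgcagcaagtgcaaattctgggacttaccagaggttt
Trav14n-2/Traj22: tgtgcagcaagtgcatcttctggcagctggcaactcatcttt

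**Figure D5:**
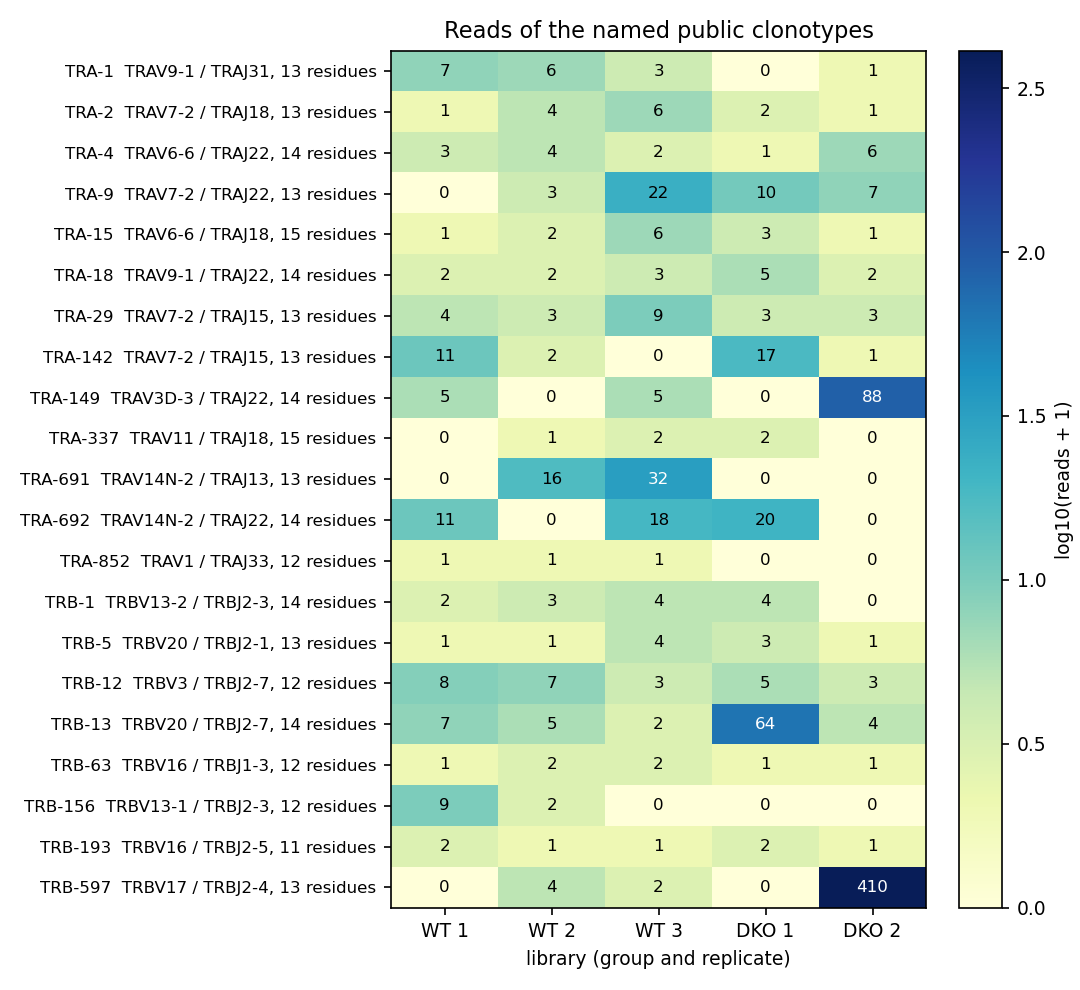
Reads of the named public clonotypes (rows: V gene, J gene and CDR3 length) in each library (columns), coloured by log10(reads + 1) with the read number printed in each cell. Most cells hold single-digit numbers in all 5 libraries, and the 410 reads of the *Trbv17* clonotype in DKO 2 stand apart.

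The other members chosen for their forms in all 5 libraries had few reads under their first V name. *Trav7-2* with *Traj18* had 1, 4 and 6 reads in WT and 2 and 1 in *Tet2/3* DKO, in 5 forms, and these forms had 6, 10 and 15 and 12 and 2 under any V name. *Trav6-6* with *Traj22* had 3, 4 and 2 and 1 and 6, also in 5 forms, or 7, 15 and 2 and 3 and 6 under any V name. *Trav6-6* with *Traj18* (1, 2 and 6; 3 and 1), *Trav9-1* with *Traj22* (2, 2 and 3; 5 and 2) and a second *Trav7-2* with *Traj15* (4, 3 and 9; 3 and 3) had single-digit numbers too, also under any V name. *Trav7-2* with *Traj22* reached 22 reads in WT 3, with 0 and 3 in the other WT libraries and 10 and 7 in *Tet2/3* DKO. With every V name counted its forms had 17, 7 and 22 reads in WT and the same numbers in *Tet2/3* DKO. In TRB, *Trbv20* with *Trbj2-1* had 1, 1 and 4 and 3 and 1, *Trbv16* with *Trbj1-3* had 1, 2 and 2 and 1 and 1, and *Trbv16* with *Trbj2-5* had 2, 1 and 1 and 2 and 1. *Trbv13-1* with *Trbj2-3*, the TRB member with the highest reads in a WT library, had 9, 2 and 0 reads in WT and none in DKO 1 or DKO 2 under that V name, and its forms had 9, 2 and 3 in WT and 0 and 2 in *Tet2/3* DKO under any. Under the first V name the reads of the groups overlapped or met at 1 value for each of these clonotypes. Under any V name the forms of *Trav9-1* with *Traj22* had 2, 2 and 4 reads in WT and 5 and 6 in *Tet2/3* DKO, which did not overlap. In the other direction, *Trav9-1* with *Traj31* had 8, 6 and 3 against 2 and 1. *Trav1* with *Traj33* had 1 in each WT library against 0 and 0. All other named clonotypes overlapped or met at 1 value under any V name, and no test was made.

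Gene pairs of invariant alpha chains were rare among the public clonotypes. Joining of *Trav11* (chr14:53519303-53519859) to *Traj18* (chr14:54200777-54200842) is used by iNKT cells, which the tetramer sort removes, and joining of *Trav1* (chr14:52427928-52428876) to *Traj33* (chr14:54185358-54185414) by MAIT cells. There was 1 member of each pair of genes, named here for its genes. The *Trav11* member has the genes of the iNKT chain but not its invariant CDR3 protein. The forms of the *Trav11* member are shown with differing bases in capitals, and the *Trav1* member had 1 form.
Trav11/Traj18, form 1: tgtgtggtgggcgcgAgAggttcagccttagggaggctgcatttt
Trav11/Traj18, form 2: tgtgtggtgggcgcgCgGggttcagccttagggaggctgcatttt
Trav1/Traj33: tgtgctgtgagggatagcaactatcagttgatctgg

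The *Trav11* member had 0, 1 and 2 reads in WT and 2 and 0 in *Tet2/3* DKO, where its form was another one with 2 inserted bases. The *Trav1* member had 1 read in each WT library and none in DKO 1 or DKO 2, in which no clonotype of these genes was seen. A count of 0 among 8694 and 5681 productive TRA reads allows up to 3 reads, so presence at a low level cannot be told from absence at this depth.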

How the data were processed

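RNA of CD4 SP thymocytes from 3 WT and 2 *Tet2/3* DKO mice was used, grouped by the genotype in the labels. The authors deposited, per library and chain, the count of reads of each clonotype, its fraction of the chain's reads, and its V, D and J alignments; the tool is not given in the sources used here. The authors also deposited read counts per gene, made with fastp 0.21.0 and STAR 2.7.5a on mm10 and neither normalized nor pooled. These gave the CPM values, counts divided by the library total.

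Clonotypes without a frameshift or stop were matched by first V name, first J name and amino acid CDR3, with at least 1 read, in Python 3.11.15 with pandas 2.3.3 and scipy 1.17.1. The deposited fractions equalled the counts divided by their sum. Inserted bases were CDR3 bases outside the first V, D and J alignments. The members, lists and alternatives were chosen with earlier results of these data known. Recurrence was compared between groups with each WT library set against the other 2 and each *Tet2/3* DKO library against pairs of WT libraries, with an exact permutation test over libraries, two-sided. The matching and the test were tested on simulated data. Germline sequences and coordinates are from GENCODE M21.

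Named clonotypes were, per chain, the 5 with most nucleotide forms among members of all 5 libraries, the 3 with most WT reads, the member with most forms, members of *Trav11* with *Traj18* or *Trav1* with *Traj33*, and members among the 10 largest clonotypes of a *Tet2/3* DKO library. Named V and J genes were the 5 most used, the 5 with the largest gain and the 3 with the largest loss. Alternatives changed the match, the reads needed, the depth, the measure, the index pairs or the replicate block, or left out a library. The labels name no litter or batch for a library, and p-values measure only the spread between these libraries.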

Additional observations from a re-analysis of the deposited data

How the results depend on the processing

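The number of public clonotypes followed the rule and the depth. Instead of 1086 TRA and 727 TRB clonotypes there were 2284 and 1497 without regard to V, 600 and 201 by nucleotide CDR3, 264 and 101 with at least 2 reads in a library, and 483 and 308 from the WT pair without a common index. Thinning to equal reads left an expected 631 TRA clonotypes, and 497 had only different nucleotide forms. Without 1 WT library, the other 2 shared 423 to 483 TRA and 257 to 308 TRB clonotypes.

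The WT minus *Tet2/3* DKO difference in recurrence, -0.159 points for TRA and 0.0257 for TRB, changed sign in several alternatives, and no alternative gave p below 0.1. For TRA it was 2.94 as percent of the set at equal reads and 0.0967 when a new nucleotide form was required. For TRB it was -0.164 without regard to V and -0.612 as percent of productive reads, to which the *Trbv17* clonotype contributed, and 6.37 as percent of the set at equal reads. Leaving out 1 library gave -0.297 to -0.0211 for TRA and -0.00373 to 0.0539 for TRB, negative without WT replicate 2 (-0.00373) or without DKO replicate 1 (-0.000463). A WT library was left out only as the library tested, since the sets need all 3. With the replicate block, the mean of the differences of same-numbered libraries, the values were -0.0957 and 0.0539 over 2 pairs. Same-numbered WT and *Tet2/3* DKO libraries have a number and 1 index sequence in common. Correlations of their deviations in V and J use lay between -0.00665 and 0.366. With only 2 *Tet2/3* DKO libraries, the deviations of these mirror each other, so the correlations cannot show whether libraries are paired. Why the differences in recurrence vary between alternatives was not tested.

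Merging nucleotide forms 1 base apart lowered the mean forms per public clonotype from 1.69 to 1.13 (TRA) and from 1.97 to 1.43 (TRB), and counting only forms with at least 2 reads in a library lowered it to 1.2 and 1.19. Public clonotypes kept the lower means of CDR3 length and inserted bases in all alternatives tried for them.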
